A study of Homo sapiens with 2 samples.

Results

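The ADAMTS proteases were compared between 2 human ovarian cancer cell lines that differ in BRCA1. Members were the genes of the authors' table named ADAMTS followed by a number, leaving out the ADAMTS-like genes, and 8 of the 1806 listed genes met this: ADAMTS1, ADAMTS3, ADAMTS7, ADAMTS8, ADAMTS9, ADAMTS12, ADAMTS13 and ADAMTS15. The family list used here has 19 genes, and the other 11 (ADAMTS2, 4, 5, 6, 10, 14, 16, 17, 18, 19 and 20) were not analysed here. The BRCA1-deficient sample is UWB1.289, an established serous ovarian carcinoma line, labelled a BRCA1 knockout. The BRCA1-expressing sample, whose line the labels spell UWABRCA1 and UWBBRCA, is labelled wild type and is the same line with BRCA1 supplied. Both were untreated tumour cells in culture, and the labels name 1 sample for each and do not say whether the BRCA1-expressing line is 1 clone.

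ADAMTS proteins are secreted zinc metalloproteases with thrombospondin repeats that bind them to the extracellular matrix. They are made with a pro-domain that furin-type convertases can remove. They are sorted by what they cut. Hyalectanases cut the large proteoglycans versican and aggrecan, another class trims the N-propeptide of fibrillar procollagens, a further one cuts cartilage oligomeric matrix protein (COMP), and ADAMTS13 alone cuts von Willebrand factor. In the ovary ADAMTS1 is known for cutting versican around the ovulating follicle in mice.

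The values are FPKM (fragments scaled to transcript length and to library size) from ribosomal RNA-depleted total RNA, given by the authors as a mean per line. A mean alone carries no spread, so none is printed and samples could not be tested against each other, and the depth of the libraries is unknown. The difference of a gene is log2(FPKM + 1) in the BRCA1-deficient line minus that in the BRCA1-expressing line, a scale that compresses differences between low values. Fold changes and adjusted p-values are those of the authors' deposited table, where every listed gene had an adjusted p of 0.0499 or less. As a check of the labels, BRCA1 stood at 5.63 FPKM in the deficient line against 22.03 in the other. Less RNA per cell and fewer expressing cells cannot be told apart in such bulk values. Of 16 markers of serous ovarian carcinoma 6 were listed, with 3 higher and 3 lower in the deficient line, and PAX8, EPCAM and the keratins were not analysed here. The mucins MUC1 (24.3 against 4.81 FPKM) and MUC16 (6.21 against 1.40) were higher and the cadherin CDH6 (41.1 against 117) was lower. None of 10 leukocyte markers was listed. All 4 endothelial markers listed, of 10, were higher in the deficient line (summed FPKM 54.4 against 16.5), EGFL7, KDR and CDH5 among them. Of all listed genes 53.5% were higher. Of 10 fibroblast markers 5 were listed, 3 higher and 2 lower. Their summed FPKM was 28.5 against 102, with COL1A2 alone at 10.5 against 97.3, so COL1A2 sets the direction of this sum. THY1 was higher (17.8 against 4.75 FPKM), and POSTN is listed at 0 with BRCA1 and at 0.118 FPKM without it. PDGFRA, listed at 0 without BRCA1, and PDGFRB, listed at 0 with it, were chosen after their values were seen. The part of such markers in the ADAMTS differences was not tested.

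Regulatory sequence of the COMP-cutting pair is shown because its 2 genes went opposite ways. Entries of 300 bases around the RefSeq start (GRCh38.p14, 250 before it and 50 after) were matched for 4 of the 8 members. Capitals mark matches, on either strand, to the letters searched. These were GGGCGG (the GC box), TATAAA (the TATA box), CACGTG (an E box), CAGCTG (an E box) and TGANTCA (AP-1 letters, N being any base). For ADAMTS12 the 30 bases around its AP-1 and E box matches are given, from 97 to 68 bases before the start (chr5:33892058-33892087, minus strand), all within an exon that GENCODE 29 gives the gene. For ADAMTS7 the 250 bases before the start are given (chr15:78811465-78811714, minus strand).
ADAMTS12: ggacactgtCAGCTGAATCActcccctttt
ADAMTS7: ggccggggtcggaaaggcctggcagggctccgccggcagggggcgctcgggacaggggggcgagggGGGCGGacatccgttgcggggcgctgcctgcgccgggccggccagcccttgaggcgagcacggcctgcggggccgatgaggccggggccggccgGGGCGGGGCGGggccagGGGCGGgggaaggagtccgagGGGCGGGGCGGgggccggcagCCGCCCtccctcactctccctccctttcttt

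The ADAMTS7 window held 7 GC boxes, with neighbours sharing a base at 2 places, while that of ADAMTS12 held 1. Of 35116 windows of the same length 44.95% held a GC box and 1.495% held 7 or more. G and C made up 74.3% of the ADAMTS7 window and 67.0% of that of ADAMTS12, beside a median of 58.7% over all windows. The shares of windows with a GC box do not take this into account. In ADAMTS12 the E box letters CAGCTG and the match to the AP-1 letters overlap, so 2 of the matches share bases. The AP-1 match reads TGAATCA, with A at the open position, and whether it is a working element was not tested. CAGCTG was present in 17.9% of all windows and the AP-1 letters in 7.71%. ADAMTS13 had 2 GC boxes and ADAMTS3 had 1. No TATA box or CACGTG was found in any of the 4 windows.

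The 8 genes split evenly, with no common direction. By the sign of the authors' fold, ADAMTS1, ADAMTS7, ADAMTS9 and ADAMTS13 were higher in the BRCA1-deficient line, and ADAMTS3, ADAMTS8, ADAMTS12 and ADAMTS15 lower. Among all listed genes 53.5% were higher and 46.5% lower. A size rule of 2-fold on the FPKM + 1 scale was passed by 2 higher members (ADAMTS1 and ADAMTS9) and 2 lower members (ADAMTS12 and ADAMTS15). For all listed genes the shares were 25.3% higher and 22.5% lower, so 2 of 8 each way is near the background. The median difference of the members was 0.04, beside 0.20 over all listed genes. With a pseudocount of 0.01 the medians were -0.31 and 0.99. That member median is only the midpoint between ADAMTS13 (0.997) and ADAMTS3 (-1.62), on either side of the even split. The wider gap therefore says no more than the shares higher and lower. Scaling both lines to the same summed FPKM gave 2 members past 2-fold in each direction, while all listed genes split into 178 higher (9.86%) and 520 lower (28.8%) in place of 457 and 406. Centring on the median ratio of those listed genes that reach 1 FPKM in each line left 1 member, ADAMTS9, higher and 2 lower, with 63 (3.49%) and 550 (30.5%) of all listed genes.

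**Figure D1:**
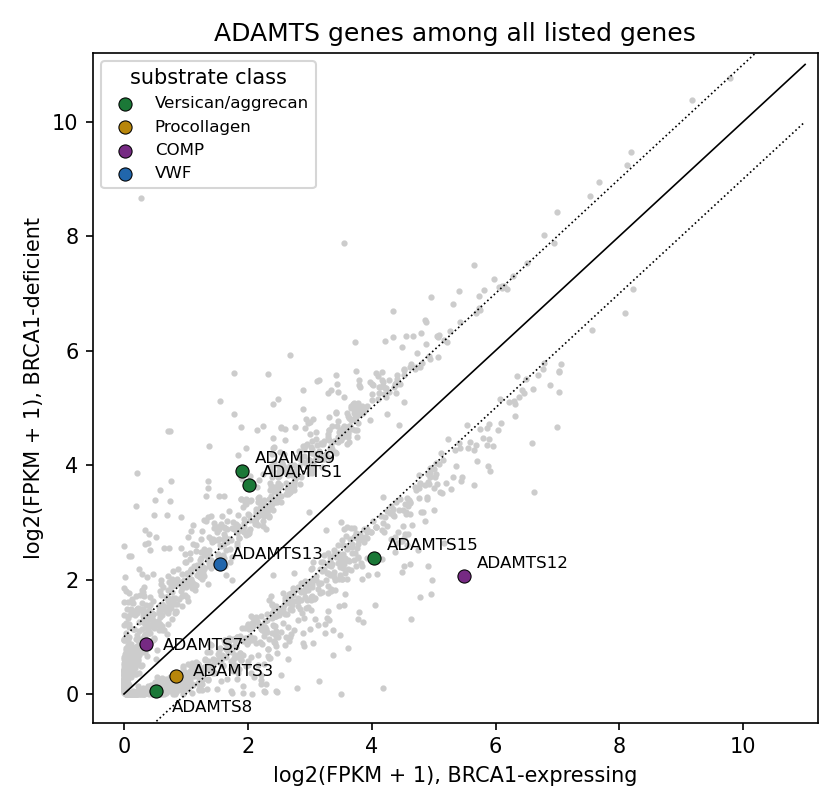
Each point is a listed gene, with log2(FPKM + 1) in the BRCA1-expressing line on the x axis and in the BRCA1-deficient line on the y axis, and the 8 ADAMTS genes coloured by substrate class. The solid line marks equal levels and the dotted lines a 2-fold difference; ADAMTS12 lies furthest below the lower dotted line of the 8, and ADAMTS1 and ADAMTS9 lie above the upper one.

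The 4 listed hyalectanases divided into 2 pairs. ADAMTS9, a versicanase whose C-terminal GON domain is named after its worm relative GON-1, reached 13.9 FPKM in the BRCA1-deficient line but 2.76 in the BRCA1-expressing line. ADAMTS1 was at 11.5 FPKM without BRCA1 and 3.05 with it. Both were therefore higher without BRCA1, by 5.04-fold and 3.78-fold on the FPKM ratio, and they were the 2 highest of the 8 genes in that line. Centring moved the difference of ADAMTS9 from 1.99 to 1.07 and that of ADAMTS1 from 1.63 to 0.73, so ADAMTS1 then fell short of 2-fold. In the authors' deposited table the log2 fold changes were 2.45 for ADAMTS9 (adjusted p 8.56e-08) and 2.13 for ADAMTS1 (adjusted p 1.79e-07).

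ADAMTS15, an aggrecanase and versicanase, went the other way, with 4.19 FPKM without BRCA1 and 15.5 in the BRCA1-expressing line. ADAMTS8, a related protease first described as an inhibitor of blood vessel growth, was low in both, at 0.0389 FPKM without BRCA1 and 0.423 with it. For ADAMTS15 the authors' deposited table lists -1.74 on the log2 scale (adjusted p 0.00159), and for ADAMTS8 -3.11 (adjusted p 0.000132). On the FPKM + 1 scale the ADAMTS8 difference was -0.45, under the size rule, because both levels lie far below 1.

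The 4 listed hyalectanases changed their make-up more than their sum. The family list has 7 hyalectanases, so the sum and shares of the whole class are unknown. Summed over the 4 genes, hyalectanase FPKM was 29.7 without BRCA1 and 21.7 with it. ADAMTS1 and ADAMTS9 together gave 85.7% of that sum in the deficient line and 26.7% in the BRCA1-expressing line. ADAMTS8 and ADAMTS15 gave the remaining 14.3% and 73.3%, nearly all of it from ADAMTS15. The log2 ratio of the sums, 0.45, turned to -0.56 when the lines were centred, so the direction of the sum depends on the scaling.

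**Figure D2:**
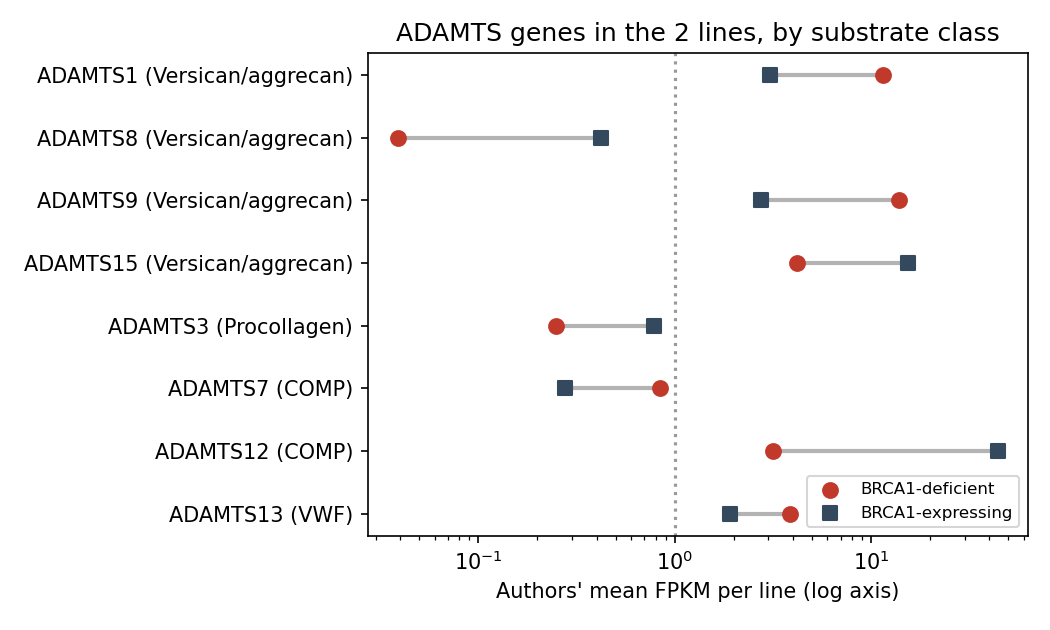
For each ADAMTS gene the authors' mean FPKM (log axis) is shown in the BRCA1-deficient line (red circle) and the BRCA1-expressing line (dark square), with the substrate class in brackets and a dotted line at 1 FPKM. The circle lies to the right for ADAMTS1, ADAMTS7, ADAMTS9 and ADAMTS13 and to the left for the other 4, and ADAMTS3, ADAMTS7 and ADAMTS8 stay under 1 FPKM in both lines.

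ADAMTS12, which cuts COMP, showed the largest difference of the 8. It had 3.15 FPKM in the BRCA1-deficient line and 44.1 in the BRCA1-expressing line, 13.98-fold apart, a difference of -3.44. Ordered by this difference it was number 3 from the lowest among the 1806 listed genes. The log2 fold change of ADAMTS12 in the authors' deposited table, -4.11, had an adjusted p of 1.33e-24, number 10 of all listed genes by adjusted p. Its class partner ADAMTS7, a protease known from a coronary artery disease locus, had 0.842 FPKM without BRCA1 and 0.276 with it. The direction was thus opposite to that of ADAMTS12, at levels under 1 FPKM in both lines (log2 fold change 1.67, adjusted p 0.00717 in the authors' deposited table).

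Named genes whose levels in the 2 lines were among those most like the levels of ADAMTS12, by distance on the log2(FPKM + 1) scale, were ERP27 (3.73 against 29.2 FPKM, distance 0.61) and ABCA4 (2.34 against 30.03, distance 0.62). ERP27 is a protein of the endoplasmic reticulum and ABCA4 a lipid transporter of the retina. With 2 values per gene this likeness says only that the levels were close.

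ADAMTS3 was the single listed procollagen N-propeptidase, and it also activates the lymphatic growth factor VEGF-C and cuts reelin. It had 0.249 FPKM without BRCA1 and 0.785 with it, low in both (log2 fold change -1.54, adjusted p 0.0243 in the authors' deposited table). ADAMTS13, the von Willebrand factor protease, had 3.85 FPKM without BRCA1 and 1.92 with it, a 2.001-fold ratio that the FPKM + 1 scale reduces to a difference of 0.73. In the authors' deposited table ADAMTS13 had the log2 fold change of smallest absolute size of the 8, 1.22, and the largest adjusted p, 0.0298. It was also the member whose direction depended on scaling, with a difference of -0.00505 when the lines were centred.

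The order of the levels differed between the lines. FPKM is scaled to length, so levels can be set beside each other within a line. In the BRCA1-deficient line the order from the highest was ADAMTS9, ADAMTS1, ADAMTS15, ADAMTS13, ADAMTS12, ADAMTS7, ADAMTS3 and ADAMTS8. In the BRCA1-expressing line it was ADAMTS12, ADAMTS15, ADAMTS1, ADAMTS9, ADAMTS13, ADAMTS3, ADAMTS8 and ADAMTS7. Neighbours such as ADAMTS1 and ADAMTS9 are too close to order without a spread. ADAMTS12 made up 64.1% of the summed FPKM of the 8 genes in the BRCA1-expressing line and 8.35% in the deficient line. ADAMTS9 made up 4.01% and 36.8%, respectively. The sum itself was 37.8 FPKM without BRCA1 and 68.8 with it, and without ADAMTS12 it was 34.6 and 24.7. In the FPKM as given, ADAMTS12 thus sets the direction of the total. Centring, which moves the deficient line by -1.01 on the log2 scale, was not applied to these sums.

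**Figure D3:**
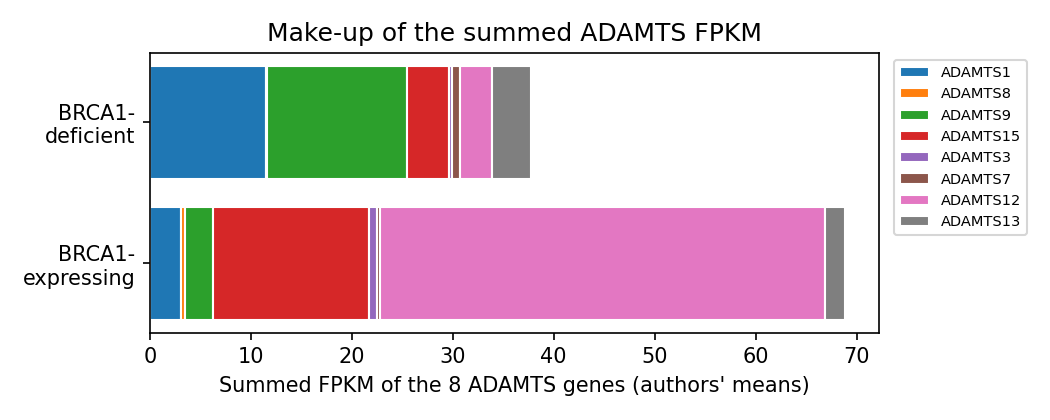
Stacked bars give the authors' mean FPKM of the 8 ADAMTS genes, summed within the BRCA1-deficient line (top, 37.8 FPKM) and the BRCA1-expressing line (bottom, 68.8 FPKM). ADAMTS12 fills most of the bottom bar, and ADAMTS1 and ADAMTS9 fill most of the top bar.

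The genes differ in structure and lie on 7 chromosomes (GRCh38 coordinates as in the table, strands and exons from GENCODE 29). ADAMTS12 (ENSG00000151388, chromosome 5, 33523535 to 33892019, minus strand) is the longest, spanning 368 kb with 24 exons in the transcript with the longest coding part. ADAMTS1 (ENSG00000154734, chromosome 21, 26835755 to 26845409, minus strand) is the shortest at 9.66 kb with 9 exons. ADAMTS9 (ENSG00000163638, chromosome 3, 64515654 to 64688000, minus strand) has the most exons, 40, and the longest coding length of the 8, 5805 bases.

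ADAMTS8 (ENSG00000134917, chromosome 11, 130404923 to 130428609, minus strand) and ADAMTS15 (ENSG00000166106, chromosome 11, 130448974 to 130476641, plus strand) lie head to head. Their annotated starts are 19.98 kb apart and point away from each other, and both genes were lower in the deficient line. Of the 28 pairs of members this pair also had the most similar coding sequence, with 65.6% identical bases over the aligned part. Next came ADAMTS8 with ADAMTS13 at 64.7%, of different classes and opposite directions. ADAMTS7 and ADAMTS12 were number 3 from the highest at 64.0%. All pairs fell between 57.2% and 65.6%, in alignments made to maximise matches, so these values rank the pairs and no more. The GC content of the coding sequences, from 46.5% in ADAMTS3 to 65.9% in ADAMTS7, was not taken into account. The 2 most similar pairs within a substrate class thus held one pair of equal and one of opposite direction. APLP2, at 260 kb from ADAMTS8 the nearest listed gene on the other side, was lower as well (134 against 297 FPKM), although 66.3% of the other 104 listed genes of chromosome 11 were higher.

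ADAMTS13 (ENSG00000160323, chromosome 9, 133414358 to 133459402, plus strand) lies among genes of its own direction. All 8 other listed genes within 2 Mb were higher in the deficient line, compared with 58.1% of the 129 other listed genes of chromosome 9. The nearest were SLC2A6, a sugar transporter, at 11.7 kb (27.5 against 8.87 FPKM) and SURF2 at 38.2 kb (17.5 against 7.25 FPKM). The only listed gene within 2 Mb of ADAMTS12 was NPR3, the natriuretic peptide clearance receptor, 732 kb away and also lower (0.0716 against 17.2 FPKM). Other members had neighbours of the opposite direction. The only listed gene within 2 Mb of ADAMTS7, ARNT2, was lower (0.0534 against 0.222 FPKM) where ADAMTS7 was higher. Of the 3 within 2 Mb of ADAMTS3 1 was higher, the growth factor AREG (29.8 against 12.5 FPKM), and 2 were lower. The only one near ADAMTS1, APP, was higher (123 against 52.1 FPKM), and no listed gene lay within 2 Mb of ADAMTS9.

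ADAMTS7 (ENSG00000136378, chromosome 15, 78759206 to 78811464, minus strand) is uncertain, because reads can be shared with near-identical copies. Of the 31-base words of its longest coding transcript 38.3% also occur on the same strand in transcripts of other genes, with 21.5% in the pseudogene ADAMTS7P1, 21.4% in ADAMTS7P3 and 19.2% in ADAMTS7P4. For the other 7 members no such word was shared on the same strand. On the opposite strand 1.92% of the words of ADAMTS9 occur in its antisense RNA ADAMTS9-AS1, 0.627% of those of ADAMTS3 occur in transcripts of other genes, and for the rest at most 0.0251%. The libraries keep strand, per the labels' protocols, but the sources used here do not say whether the counting used it. ADAMTS3 (ENSG00000156140) spans chromosome 4, 72280969 to 72569221, on the minus strand.

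Base composition moved with direction across the whole table. In quintiles of the GC content of the longest transcript, the share of listed genes higher in the BRCA1-deficient line went from 14.2% in the lowest to 89.7% in the highest. ADAMTS7 (65.7% GC) and ADAMTS13 (64.1%) lay in the highest quintile and were higher, and ADAMTS3 (42.9%) lay in the second, where 23.96% were higher, and was lower. ADAMTS8 (62.5%) and ADAMTS15 (59.8%) were lower in quintiles where 89.7% and 80.2% of listed genes were higher. ADAMTS1 (48.6%), ADAMTS9 (48.4%) and ADAMTS12 (48.4%) share the middle quintile, where 59.3% were higher, and went opposite ways at nearly equal GC content. The part of GC content in the differences was not tested.

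**Figure D4:**
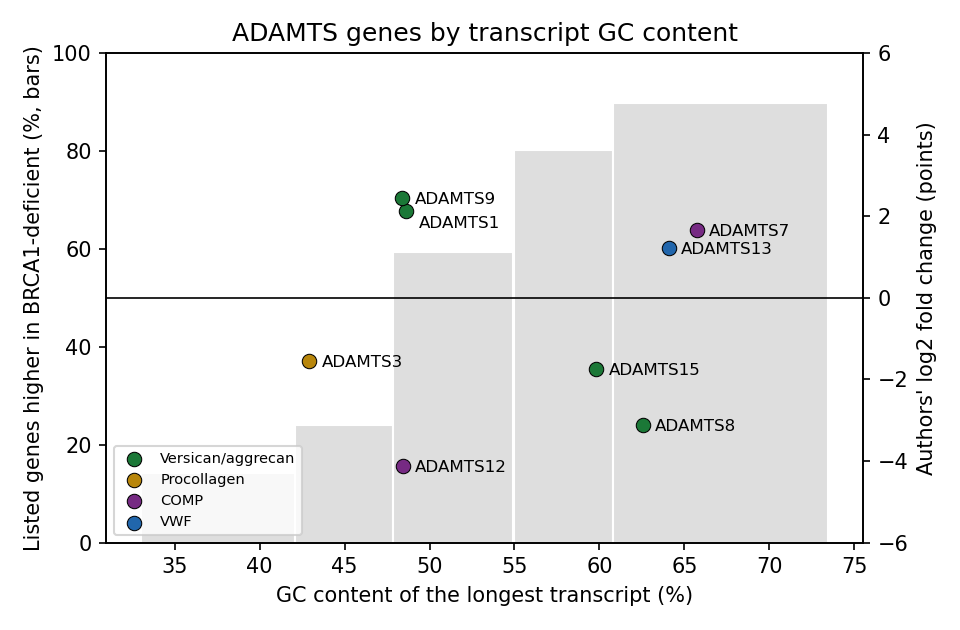
Points give the authors' log2 fold change of each ADAMTS gene (right axis) by the GC content of its longest transcript (x axis, percent), coloured by substrate class. Grey bars give the percent of all listed genes that were higher in the BRCA1-deficient line in each GC quintile (left axis), from 14.2% to 89.7%. ADAMTS8 and ADAMTS15 are lower where most genes were higher, and ADAMTS9 and ADAMTS12 differ in direction at 48.4% GC.

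Few genes of the fibrillar collagens and microfibrils, which ADAMTS proteases act on, were in the table, and these counts have no test. None of the 6 family genes classed with fibrillin or with no assigned substrate was among the listed members. Of 9 fibrillar procollagen chains 1 was listed, COL1A2, a type I collagen chain, at 10.5 FPKM against 97.3, lower like ADAMTS3. Of 17 fibrillin microfibril genes 7 were listed, 2 higher and 5 lower, with a median difference of -1.08, where 46.5% of all listed genes were lower. The fibrillin FBN2 had 1.32 FPKM against 8.53, the microfibril protein MFAP5 0.515 against 2.71, the latent TGF-beta binding protein LTBP4 6.57 against 15.8, and FBN1 0.891 against 2.99. The higher ones were the fibulins EFEMP1 (9.94 against 2.05 FPKM) and FBLN2 (2.83 against 1.14).

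Versican and aggrecan themselves were not analysed here. Of 12 genes of hyalectans, their linkers and hyaluronan 2 were listed, and both stayed under 1 FPKM. They are named after their values were seen: brevican, BCAN, had 0.625 FPKM in the deficient line against 0.104, and the hyaluronan synthase HAS3 0.114 against 0.434. Of 9 COMP, thrombospondin and von Willebrand factor genes 2 were listed and went opposite ways, THBS1 at 37.8 against 129 FPKM and THBS3 at 7.59 against 3.77. COMP and VWF were not analysed here. Of 8 genes around VEGF-C and reelin 3 were listed: the reelin receptors VLDLR (2.10 against 5.71 FPKM) and LRP8 (7.61 against 4.06), and RELN (0.0506 against 0.378), chosen after its values were seen.

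In the FPKM as given, the listed convertases that can remove the pro-domain were higher, where 53.5% of all listed genes were higher. FURIN had 34.4 FPKM in the BRCA1-deficient line against 15.1 (difference 1.13), and PCSK6 1.93 against 0.488 (difference 0.98). They were the 2 listed of 10 genes of activation, binding and clearance. The centring shift of the deficient line, -1.01 on the log2 scale, is of similar size and was not applied to them. Of 6 metalloprotease inhibitors 1 was listed, the membrane-anchored RECK, lower at 1.58 against 4.41 FPKM, and TIMP1 to TIMP4 were not analysed here. None of 5 genes that glycosylate thrombospondin repeats was listed. Log2 fold changes in the authors' deposited table were 1.32 for FURIN (adjusted p 0.0121), 2.28 for PCSK6 (adjusted p 9.14e-06) and -1.50 for RECK (adjusted p 0.00303).

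The ADAMTS-like proteins lack the protease domain. In a list of 7 genes, papilin among them, 3 were in the table. ADAMTSL1 was lower at 0.0258 FPKM in the BRCA1-deficient line against 4.52, and papilin, PAPLN, at 0.298 against 1.40. THSD4, an ADAMTS-like protein that binds fibrillin, was higher at 7.70 against 3.45. ADAMTSL1 had the lowest log2 fold change of the list in the authors' deposited table, -5.92 (adjusted p 4.35e-26).

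Genes of the other metalloprotease families are given for comparison, and no test of a difference from the ADAMTS genes was made. All 5 listed matrix metalloproteinases, of 23, were higher in the BRCA1-deficient line, where 53.5% of all listed genes were higher. Among them were the collagenase MMP14 at 61.2 FPKM against 25.5 and the gelatinase MMP2 at 6.30 against 0.264. Centred differences were not computed for the MMP genes or the convertases. The differences as given were 1.23 for MMP14 and 2.53 for MMP2, beside a centring shift of -1.01 for the deficient line. MMP17 had 4.42 against 1.85 and MMP23B 4.40 against 1.48, and MMP7 (0.337 against 0.0284), chosen after its values were seen, stayed under 1 FPKM. Of 15 ADAM proteases 3 were listed, ADAM8 higher at 5.66 against 1.58 FPKM and ADAM19 (0.383 against 1.69) and ADAM22 (0.282 against 1.76) lower. ADAM22 is known as a synaptic receptor without protease activity.

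**Figure D5:**
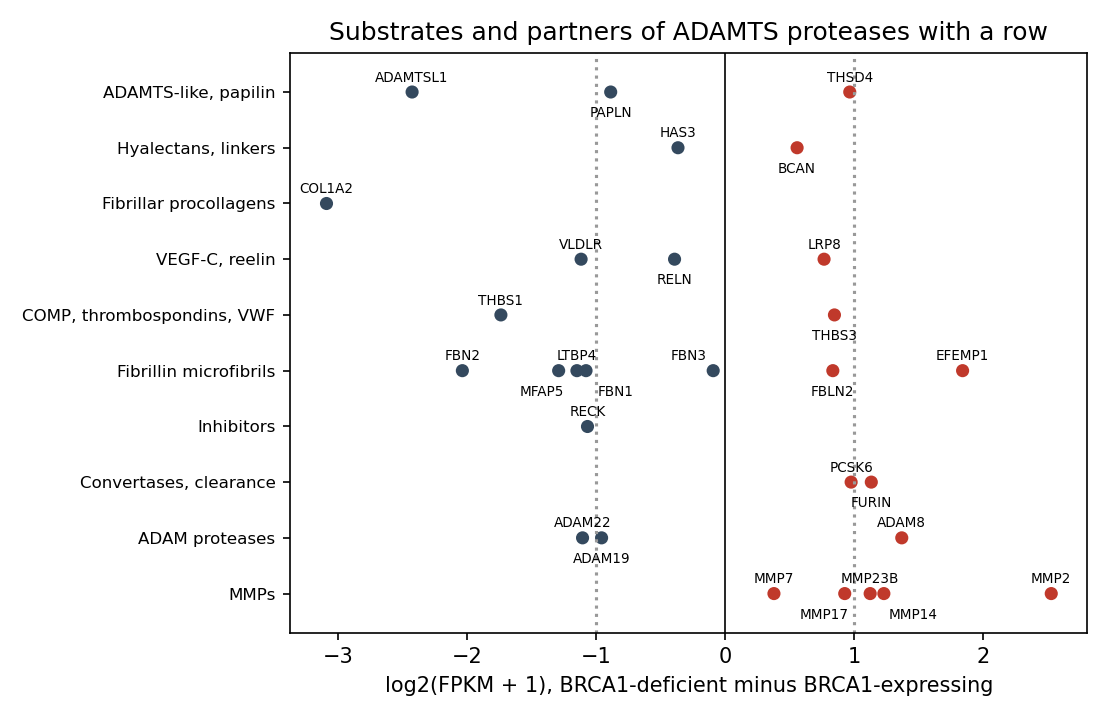
Each point is a listed gene of a substrate, inhibitor, activator or related protease list, placed by its log2(FPKM + 1) difference, BRCA1-deficient minus BRCA1-expressing (red above 0, dark below 0), with dotted lines at a 2-fold difference. The 5 MMP genes and both convertases lie to the right of 0, and COL1A2 lies furthest to the left at -3.09.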

How the data were processed

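Total RNA of the 2 samples was depleted of ribosomal RNA and made into strand-specific libraries, per the labels' protocols. Per the submitters' processing notes the tools include HISAT2 and StringTie 1.3.3b and the build is given as mm9, a mouse build, although the gene IDs and coordinates are human. The authors deposited 1 mean FPKM for each line. Multiplied by 3, all 1806 values per line had no more than 6 decimals (to within 0.02 of the last), as means of 3 values would. The log2 fold changes, p-values and adjusted p-values were deposited by the authors, and the sources used here do not name their test. The table holds only called genes, so it cannot show what stayed the same.

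Computed here were log2(FPKM + 1) differences, counts past 2-fold, medians and sums by substrate class, with Python 3.11.15, numpy 2.4.6, pandas 2.3.3 and matplotlib 3.10.9. Only the differences and the counts past 2-fold were tried on simulated data. Large changes without noise were planted there in genes well above 1 FPKM, so low levels were not covered. Members and gene lists were chosen with earlier results of these data known. All 8 members are named, and of each other list those at 1 FPKM or more in either line, up to 6 by size of difference (of marker lists, up to 3 at any level). Genes named outside this rule are marked as chosen after their values were seen, or are genome neighbours. Transcripts came from GENCODE release 29 (GRCh38) and promoters from RefSeq (GRCh38.p14). Protein sequences were not used here. For ADAMTS12, genes with the nearest levels in the 2 lines are also named, and 1 that this rule selects is not reported here.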

Additional observations from a re-analysis of the deposited data

How the results depend on the processing

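No result here has a test across samples, so a difference is called moved when it changed by more than 1.5-fold and a count when it did so by more than 1.5 times. Of 40 member differences (8 genes under 5 alternatives) 25 stayed within that limit, 14 moved in size and 1 turned, ADAMTS13, to -0.00505 when centred. Members 2-fold lower were 4 with a pseudocount of 0.1 or 0.01 and by the authors' fold (backgrounds over all listed genes 41.9%, 45.0% and 46.0%), and 1 under a 4-fold rule (2.33%). Members 2-fold higher were 3 with either smaller pseudocount (46.5% and 49.6%), 4 by the authors' fold (53.4%), 1 when centred and 0 under a 4-fold rule (2.77%). The members' median of 0.04 turned to -0.19 and -0.31 with pseudocounts of 0.1 and 0.01, -0.0598 with equal totals, -0.24 when centred and -0.16 by the authors' fold, and was 0.73 with a minimum of 1 FPKM in either or both lines, where 5 members remain. The median of all listed genes, 0.20 in the main setting, was 0.89 and 0.99 with those pseudocounts, 0.13 with equal totals, -0.00916 when centred, 1.16 by the authors' fold, and 0.78 and 0.87 with the minimum in either and in both lines. The same minimum moved the hyalectanase median from 0.59 to 1.63 and the COMP class median from -1.46 to -3.44, because it drops ADAMTS8 and ADAMTS7. Centring, which moved the deficient line by -1.01 and the median of all listed genes by -0.21, turned the hyalectanase log2 ratio of sums to -0.56 and moved that of the COMP class from -3.47 to -4.48. Only called genes entered either rescaling. No paired analysis was possible because each line has 1 sample and means only. The depth is unknown and sets no floor for the 3 members under 1 FPKM.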
